A study of Homo sapiens with 24 samples.

Results

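Shelterin, the CST complex and telomerase are the protein machines that guard, replicate and lengthen chromosome ends, and their genes were followed here across 8 conditions of 2 ovarian cancer cell lines. The 10 genes were chosen by name and not by a cut-off on a measured value, though with earlier results of these data known. They are TERF1, TERF2, TERF2IP, TINF2, ACD and POT1 for shelterin, CTC1, STN1 and TEN1 for CST, and TERT for the catalytic subunit of telomerase. All 10 were found among the 28277 genes listed in each of 2 tables of counts. In the table of 6 libraries 9 of the 10 had enough counts to be tested, TEN1 being listed at 0, and in the table of 18 libraries all 10 did.

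PEO1 and PEO4 are established lines of high-grade serous ovarian carcinoma, derived from the same patient before and after resistance to chemotherapy, and PEO4 has regained BRCA2 by a reversion mutation. The table of 6 libraries holds untreated PEO1 A and PEO4 A cells. PEO1 A carries the label WT and is described in the study's methods as impaired in BRCA2; both A cultures were grown with sodium pyruvate. The table of 18 libraries holds PEO1 B, labelled BRCA2+, and PEO4 B, labelled WT, each untreated or given 5 µM PDS for 2 or 6 h. PDS stands for pyridostatin, a compound that stabilises G-quadruplexes (G4s), the 4-stranded structures that G-rich DNA can fold into. Each condition had 3 replicate libraries of polyadenylated RNA. PEO1 B is a PEO1 line with restored BRCA2, so that BRCA2 is restored in both lines of the B pair. The study's legends speak of biological replicates in its expression plots, while the labels do not say whether replicates came from separate cultures, and p-values measure the spread between these samples.

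Human chromosome ends carry TTAGGG repeats whose G-rich strand ends in a single-stranded overhang, a sequence that can fold into G4s. Within shelterin, the proteins of TERF1 and TERF2 (TRF1 and TRF2) bind the double-stranded repeats, that of TERF2IP (RAP1) rides on TRF2, that of TINF2 (TIN2) bridges the complex, and those of ACD (TPP1) and POT1 form the pair that covers the overhang and recruits telomerase. CST binds single-stranded DNA, ends telomerase action and guides DNA polymerase alpha-primase in filling in the complementary strand. TERT copies the repeats from the RNA template TERC. Most somatic cells keep TERT silent, and most carcinomas express it at a low level.

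Library totals were 32528913 to 63882077 counts in the A table, 18699929 to 22375644 in the untreated B libraries and 33260167 to 43713947 in the treated ones. Within the B table every treated library was thus deeper than every untreated one, and ribosomal RNA genes took 0.217% to 0.4735% of counts in untreated B libraries against 0.01635% to 0.0369% in treated ones. These library differences and the treatment cannot be told apart. Of 10 ovarian carcinoma markers, 8 or 9 averaged above 1 CPM (counts per unit of library size, the size being scaled by TMM) in each condition, with PAX8 between 112.5 and 331.3 CPM. MUC1 was near 0 outside PEO1 A, and FOLR1 near 0 in the PEO1 cells. The leukocyte marker PTPRC averaged at most 0.02284 CPM. Of 4 leukocyte, 3 endothelial and 4 fibroblast markers at most 1 of each list exceeded 1 CPM, and a list summed to at most 6.121, 2.718 and 32.99 CPM in any library. The 2 tables did not count all genes alike: 121 genes with at least 200 counts in every B library were at 0 in every A library, and 0 genes the other way. Levels from the 2 tables were therefore set side by side without a test.

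In GRCh38 the shelterin genes other than TERF1 lie at chr16:69355567-69386007 (TERF2), chr16:75647773-75657432 (TERF2IP), chr14:24239640-24242674 (TINF2), chr16:67657512-67660260 (ACD) and chr7:124822386-124929825 (POT1). The CST genes lie at chr17:8224815-8248056 (CTC1), chr10:103877569-103918184 (STN1) and chr17:75979240-76000586 (TEN1), and TERT at chr5:1253167-1295068. Promoter sequences are shown first because PDS acts on G4s. RefSeq's promoter table (GRCh38.p14) held 6 of the 10 genes, and the 250 bases upstream of each start were searched on both strands for 4 or more runs of at least 3 G separated by 1 to 7 bases. This pattern was found in 23.5% of all 35116 such windows, on the gene's own strand in 13.3% and on the opposite strand in 12.2%. It was found for STN1 and TERT, and not in the windows of TERF2IP, TINF2, ACD or POT1. The windows of STN1 and TERT, the genes with the largest differences below, and of TERF2IP, the shelterin gene with the largest response to PDS, read as follows from 5′ to 3′ on the strand of the gene, with the matched bases in capitals.
STN1, chr10:103918185-103918434, minus strand: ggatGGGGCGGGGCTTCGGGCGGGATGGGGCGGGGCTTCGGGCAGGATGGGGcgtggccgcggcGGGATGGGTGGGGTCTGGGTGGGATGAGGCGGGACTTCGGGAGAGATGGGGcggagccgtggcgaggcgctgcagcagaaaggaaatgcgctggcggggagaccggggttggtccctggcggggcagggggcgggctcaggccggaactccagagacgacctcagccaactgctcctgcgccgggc
TERT, chr5:1295069-1295318, minus strand: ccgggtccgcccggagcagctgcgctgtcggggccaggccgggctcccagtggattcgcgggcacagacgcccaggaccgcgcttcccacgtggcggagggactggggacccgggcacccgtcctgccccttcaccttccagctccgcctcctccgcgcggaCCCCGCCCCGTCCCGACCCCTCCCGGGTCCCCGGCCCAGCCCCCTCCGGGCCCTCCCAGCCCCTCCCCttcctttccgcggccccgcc
TERF2IP, chr16:75647523-75647772, plus strand: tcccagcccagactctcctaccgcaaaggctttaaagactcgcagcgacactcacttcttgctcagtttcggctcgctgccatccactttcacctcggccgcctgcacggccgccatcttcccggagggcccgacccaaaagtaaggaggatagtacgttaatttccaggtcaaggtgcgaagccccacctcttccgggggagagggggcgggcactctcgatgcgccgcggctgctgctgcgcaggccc
In STN1 the match covered 99 bases in 2 segments on the gene's own strand, from position -246 to -136 relative to the start. For TERT it covered 68 bases from -88 to -21 and lay on the opposite strand, so that it appears as runs of C. The TERT window also held 1 E-box (CACGTG), the site bound by MYC and MAX, which was present in 6.34% of all windows, and 2 GC-boxes (GGGCGG on either strand, counted also where they overlap the G4 pattern), which were present in 42.6%. A match is only a pattern of letters: the counts say nothing of whether a G4 forms there.

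**Figure D1:**
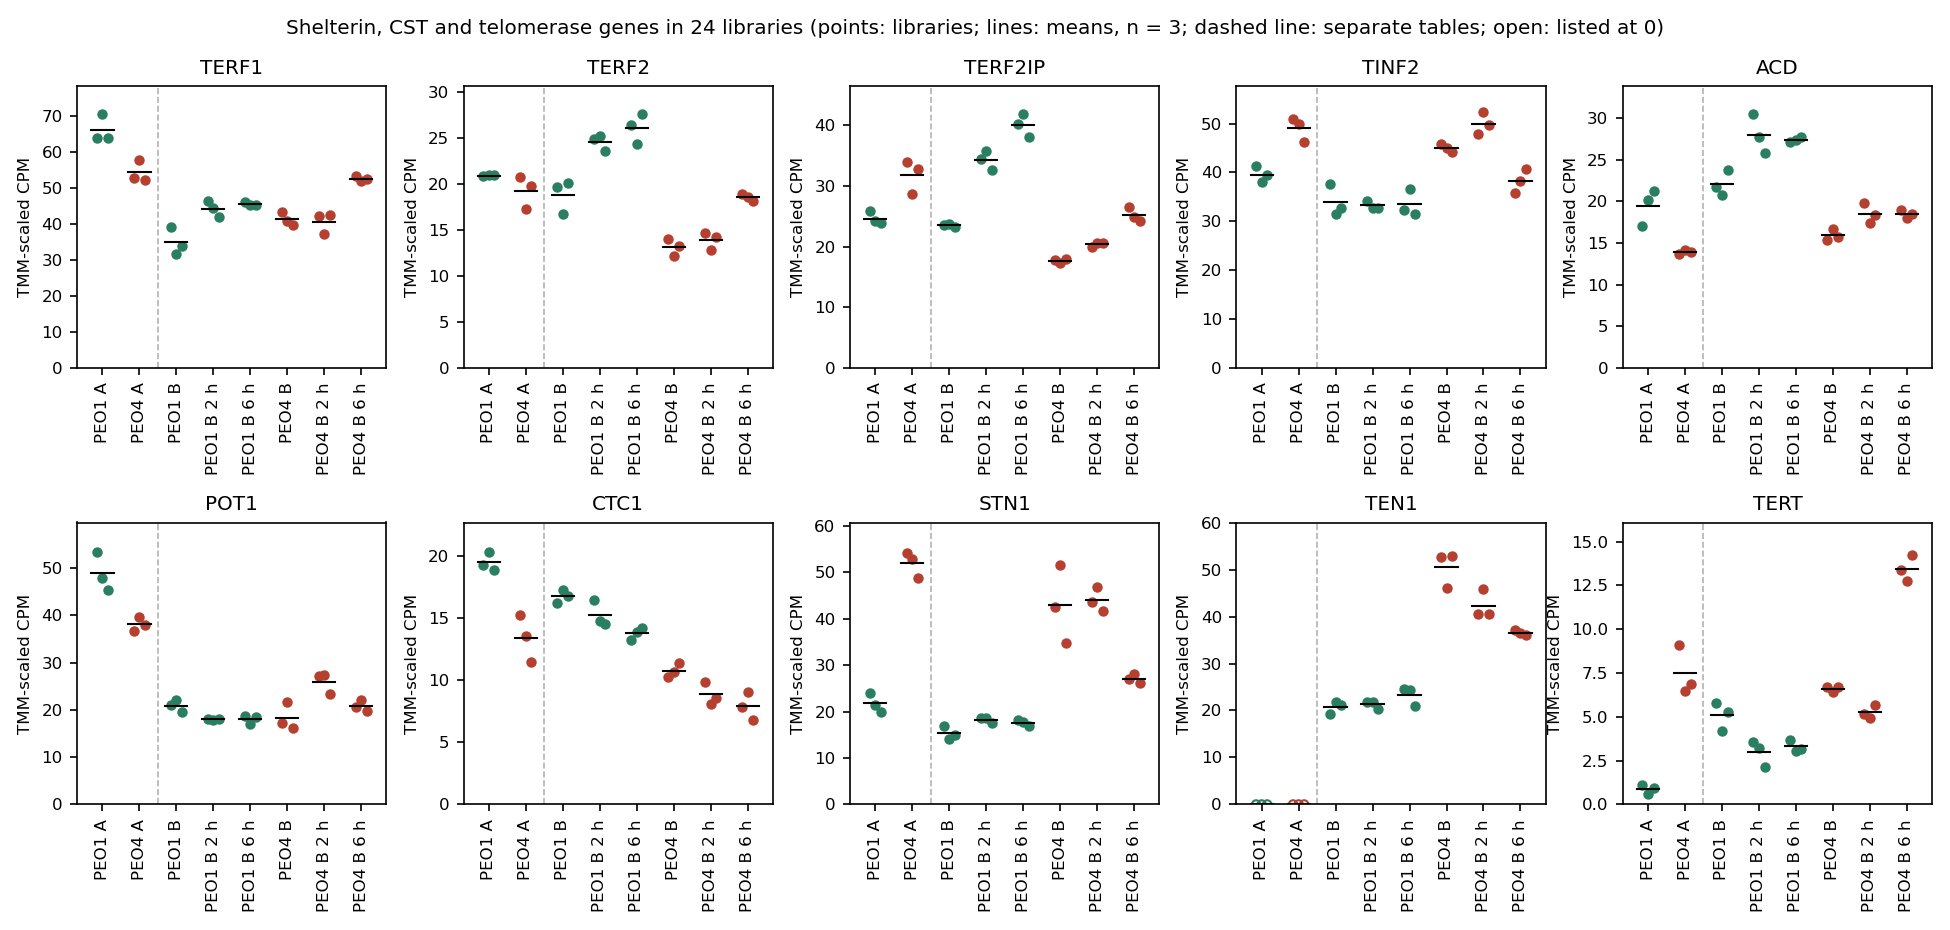
TMM-scaled CPM of the 10 genes in 24 libraries (points, 3 per condition) with the mean as a line; PEO1 is green and PEO4 red, and the dashed line separates the 2 tables. TERT reached 12.78 to 14.22 CPM in PEO4 B after 6 h of PDS, above every other library, and TEN1 was listed at 0 in the A table.

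Untreated PEO4 and PEO1 cells differed in most of the 10 genes, in both directions. Between PEO4 A and PEO1 A, 4 of the 9 tested genes were higher in PEO4 and 4 lower at an adjusted p under 0.05 (quasi-likelihood test of edgeR, adjusted by Benjamini-Hochberg across the whole table, the source of each adjusted p given here), where 30.1% of all genes tested were higher and 31.6% lower. Between PEO4 B and PEO1 B, 5 of 10 were higher and 4 lower, against 34% and 34.6% of all genes. The median log2 fold change of the genes was -0.118 in the A pair and 0.028 in the B pair, and that of all genes was -0.006 and -0.001. Of the 9 genes tested in both pairs, 7 passed in both, 5 with the same direction and 2, TERF1 and TERF2IP, with opposite directions. Of all genes tested, 61.6% passed in the A pair and 68.6% in the B pair. The share of all genes that passed in both pairs, or in opposite directions, was not counted.

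TERT was the gene with the largest difference in the A pair. PEO1 A libraries had 1.09, 0.587 and 0.958 CPM, from 22 to 52 counts, and PEO4 A libraries had 9.09, 6.5 and 6.89 CPM, from 225 to 590 counts. No library overlapped, and TERT was 8.43-fold higher in PEO4 A (log2 fold change 3.08 ± 0.244 SE, adjusted p = 3e-07). In the B pair the same gene was close between the lines, with 5.8, 4.17 and 5.27 CPM in PEO1 B and 6.71, 6.43 and 6.68 CPM in PEO4 B. This 1.31-fold difference passed at an adjusted p of 0.0242, but not without PEO1 B untreated replicate 2 (adjusted p = 0.151) or PEO4 B untreated replicate 1 (0.0519). The larger contrast of the A pair thus went with a low level in PEO1 A, which at 0.878 ± 0.26 CPM (SD, n = 3) had the lowest TERT of the 8 conditions, over tables scaled separately.

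The 3 subunits of CST did not go the same way. STN1, which contacts the polymerase, was 2.38-fold higher in PEO4 A (24.1, 21.4 and 20 CPM in PEO1 A; 54.3, 52.9 and 48.9 CPM in PEO4 A; adjusted p = 1.78e-07). It was 2.81-fold higher in PEO4 B, with 17, 14.1 and 14.9 CPM in PEO1 B against 42.6, 51.6 and 34.7 CPM (adjusted p = 5.85e-12). CTC1, the large scaffold subunit, was lower in PEO4 in both pairs. Its levels were 19.5 ± 0.753 and 13.4 ± 1.89 CPM in PEO1 A and PEO4 A (1.45-fold lower, adjusted p = 0.00187), and 16.8 ± 0.491 and 10.8 ± 0.593 CPM in PEO1 B and PEO4 B (1.55-fold lower, adjusted p = 4.41e-06). The ratio of STN1 to CTC1 counts within a library, which does not depend on scaling, was 1.05 to 1.25 in PEO1 A and 3.57 to 4.27 in PEO4 A, and 0.818 to 1.04 in PEO1 B and 3.04 to 4.85 in PEO4 B. It shows unequal differences of the 2 genes and not which of them differed.

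TEN1, the smallest subunit, was 2.44-fold higher in PEO4 B, at 19.2, 21.9 and 21.1 CPM in PEO1 B and 52.8, 46.1 and 52.9 CPM in PEO4 B (adjusted p = 1.95e-13). Of the 1283 exon bases of TEN1, 974 (75.9%) also lie in exons of the readthrough gene TEN1-CDK3, so reads within those shared bases cannot be told apart. TEN1-CDK3 had 29.8 ± 1.3 CPM in PEO1 B and 77.3 ± 7.86 CPM in PEO4 B. In the A table, where TEN1 was listed at 0, TEN1-CDK3 had 0.593 ± 0.0974 CPM in PEO1 A and 2.69 ± 0.368 CPM in PEO4 A.

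**Figure D2:**
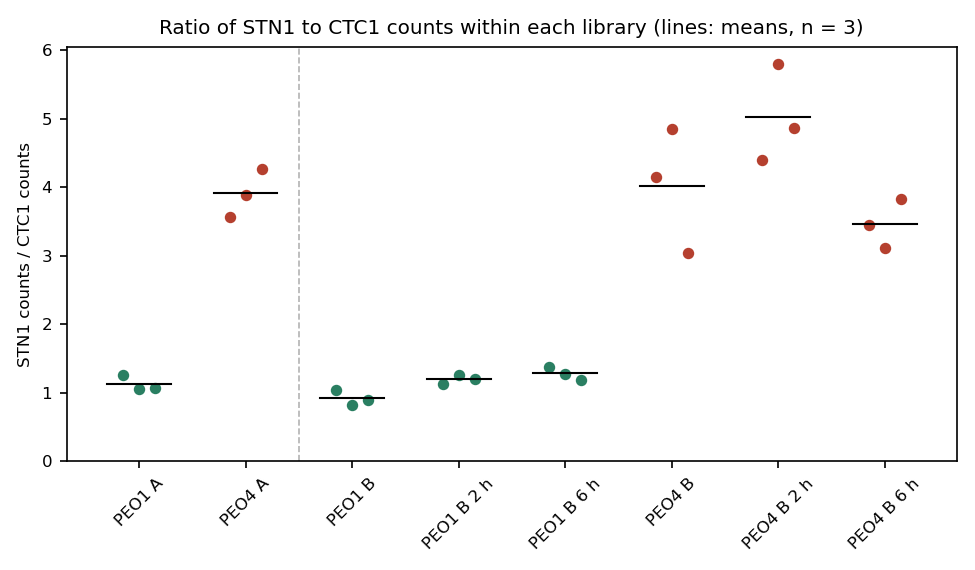
Ratio of STN1 to CTC1 counts in each of 24 libraries (points) with the mean of 3 as a line, by condition; PEO1 is green, PEO4 red and the dashed line separates the tables. All PEO4 libraries lie at 3.04 or above and all PEO1 libraries at 1.38 or below.

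Among the shelterin genes, the differences between the lines were below 1.5-fold. TINF2 was higher in PEO4 in both pairs, at 39.6 ± 1.61 and 49.1 ± 2.47 CPM in PEO1 A and PEO4 A and at 33.9 ± 3.22 and 45 ± 0.796 CPM in PEO1 B and PEO4 B (adjusted p = 0.00424 and 2.15e-05). ACD was lower in PEO4 in both, 1.4-fold in the A pair and 1.39-fold in the B pair (adjusted p = 0.00218 and 9.06e-06). POT1, the partner of the ACD protein, was 1.28-fold lower in PEO4 A (adjusted p = 0.00284), and its libraries overlapped in the B pair at 19.5 to 22.1 CPM in PEO1 B and 16.3 to 21.6 CPM in PEO4 B (adjusted p = 0.0716). TERF2 was 1.43-fold lower in PEO4 B (adjusted p = 1.08e-05), while in the A pair its log2 fold change was -0.12, with a 95% interval from -0.34 to 0.10.

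TERF1 and TERF2IP were the genes whose direction turned between the pairs. TERF1 had 64, 70.7 and 63.9 CPM in PEO1 A and 53, 57.9 and 52.3 CPM in PEO4 A, and was 1.22-fold lower in PEO4 (adjusted p = 0.00701). In the B pair it had 39.1, 31.8 and 34 CPM in PEO1 B and 43.4, 41 and 39.9 CPM in PEO4 B, and was 1.19-fold higher (adjusted p = 0.00372). TERF2IP had 25.8, 24.2 and 23.9 CPM in PEO1 A and 33.9, 28.7 and 32.8 CPM in PEO4 A, 1.29-fold higher in PEO4 (adjusted p = 0.00434). It had 23.6, 23.7 and 23.3 CPM in PEO1 B and 17.8, 17.3 and 18 CPM in PEO4 B, 1.33-fold lower (adjusted p = 6.38e-06). The 2 pairs differ in the BRCA2 status of PEO1, in the medium and in the table they were counted in, and these cannot be told apart. The ratio of TERF2 to TERF1 counts was 0.502 to 0.592 in PEO1 B against 0.298 to 0.334 in PEO4 B, and 0.297 to 0.329 against 0.299 to 0.392 in the A pair.

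**Figure D3:**
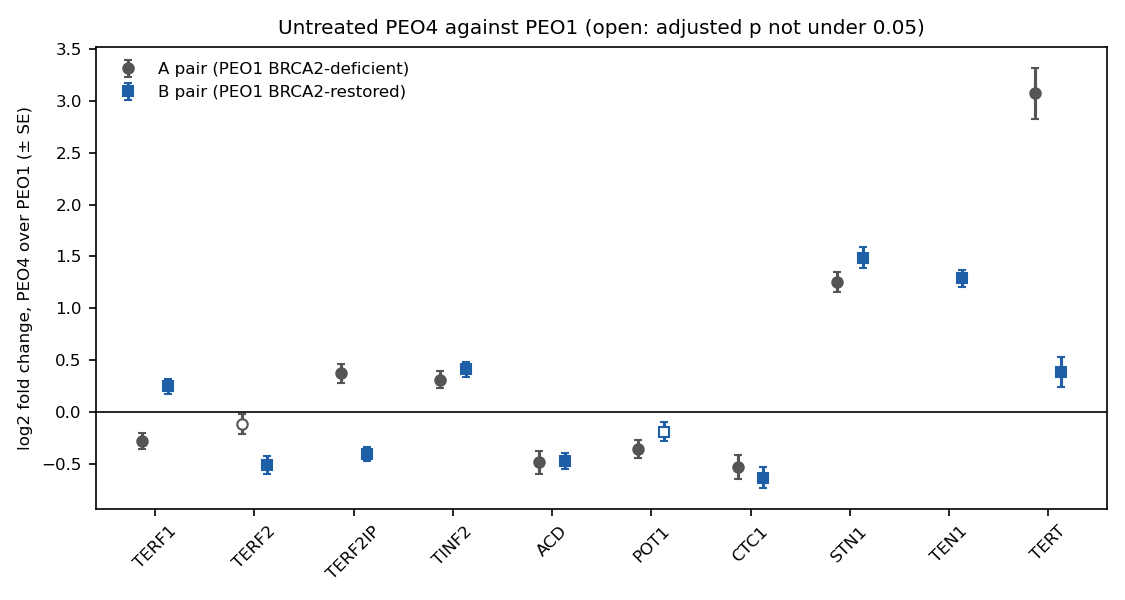
Log2 fold change of untreated PEO4 over PEO1 (± SE derived from the edgeR test). Circles are the A pair and squares the B pair, with 3 libraries a line. Open symbols did not reach an adjusted p under 0.05, and TEN1 has no value in the A pair. STN1 lies above 1 in both pairs, TERT only in the A pair, and TERF1 and TERF2IP lie on opposite sides of 0.

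Levels were compared between genes per kilobase of the longest annotated transcript. TEN1 was highest in every B condition, from 21.3 ± 1.44 CPM per kb in untreated PEO1 B to 51.9 ± 4.03 in untreated PEO4 B, with the limit on its reads given above. In untreated PEO1 B it was followed by TERF2IP (11.1 ± 0.0914), TINF2 (9.46 ± 0.899), ACD (8.67 ± 0.602), TERF1 (8.24 ± 0.886), TERF2 (6.29 ± 0.608) and POT1 (5.29 ± 0.326). TINF2, ACD and TERF1 lay within their spreads of each other. CTC1 (2.38 ± 0.0698) and STN1 (2.16 ± 0.208), within their spreads of each other, came next and TERT last at 0.961 ± 0.157 CPM per kb. In untreated PEO4 B the order after TEN1 was TINF2 (12.5 ± 0.222), TERF1 (9.77 ± 0.426), TERF2IP (8.31 ± 0.163), ACD (6.24 ± 0.272), STN1 (6.04 ± 1.19), POT1 (4.64 ± 0.724), TERF2 (4.41 ± 0.313), CTC1 (1.53 ± 0.0842) and TERT (1.25 ± 0.0293). ACD and STN1, and POT1 and TERF2, did not differ beyond their spreads there. In the A table TERF1 led in PEO1 A (15.6 ± 0.923) and TERF2IP in PEO4 A (14.9 ± 1.28), and TERT was last in both. In PEO4 A TERF2IP and TINF2 (13.7 ± 0.689) lay within their spreads of each other. TERT was the lowest of the genes tested in 7 of the 8 conditions. The exception was PEO4 B after 6 h of PDS, where TERT at 2.55 ± 0.136 CPM per kb stood above CTC1 at 1.12 ± 0.159. The order depends on the transcript length used. With the shortest coding transcript TEN1 ranked 4, 3 and 3 in PEO1 B untreated and at 2 and 6 h of PDS, where TERF2 ranked 1, TERF2IP went from rank 1 to 6 in PEO4 A, where TERF1 ranked 1, and the rank of TERT was the same in all 8 conditions.

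Some of the 10 genes differed between PDS-treated and untreated cells in each line, at 7 and 6 of 10 in PEO1 B at 2 and 6 h, where 52.6% and 53% of all genes differed, and 6 and 9 of 10 in PEO4 B, where 65.3% and 69.8% did. In PEO1 B, 5 of the 10 genes rose and 2 fell after 2 h (all genes: 26.4% higher, 26.2% lower), and 4 rose and 2 fell after 6 h (27% and 26%). From 2 to 6 h only TERF2IP changed, upwards, where 3.96% of all genes rose and 2.98% fell. In PEO4 B, 3 rose and 3 fell after 2 h (33.3% and 32%), and 5 rose and 4 fell after 6 h (34.6% and 35.2%). From 2 to 6 h 4 rose and 4 fell in PEO4 B (28.9% and 31.3%). No change in PEO1 B exceeded 2-fold, and in PEO4 B that of TERT did. The median over the 10 genes was 0.146 and 0.186 at 2 and 6 h in PEO1 B and 0.056 and 0.202 in PEO4 B, with medians of all genes between -0.028 and 0. The 4 treated groups were each compared with the untreated cells of their line, and the 2 times share those controls.

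When library totals replaced TMM as the scaling, the median of all genes moved to -0.173 at both times in PEO1 B, and to -0.128 and -0.188 at 2 and 6 h in PEO4 B. In PEO1 B the counts of followed genes that rose and fell then became 4 and 4 at 2 h. They were 3 and 4 at 6 h in PEO1 B, and 1 and 4 at 2 h in PEO4 B. Of all 17020 genes tested, 2838 rose and 6342 fell at 2 h in PEO1 B. At 6 h 2977 rose and 6290 fell there, and at 2 h in PEO4 B 4431 rose and 6762 fell. Upper-quartile scaling gave 1 and 3 at 2 h in PEO4 B, where 5059 of all genes rose and 6059 fell. More falls than rises were thus called among all genes in each of these comparisons. No called gene among those followed here changed direction under any scaling tried.

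TERF1, TERF2, TERF2IP and ACD were called higher in both lines at 6 h, where 27% of all genes were higher in PEO1 B and 34.6% in PEO4 B. The share of all genes higher in both lines was not counted. TERF2IP and ACD were also called at 2 h in both. In PEO1 B TERF2IP went from 23.6, 23.7 and 23.3 CPM to 34.5, 35.7 and 32.6 at 2 h and 40.3, 41.8 and 38.1 at 6 h, 1.46-fold and 1.7-fold higher (adjusted p = 9.63e-08 and 3.35e-10). In PEO4 B it went from 17.8, 17.3 and 18 CPM to 20, 20.6 and 20.7 at 2 h and 26.5, 24.9 and 24.3 at 6 h, 1.16-fold and 1.43-fold higher (adjusted p = 0.00699 and 1.38e-07). Its libraries did not overlap between untreated cells and either time in either line. The small rise at 2 h in PEO4 B did not pass with library totals (adjusted p = 0.293), upper-quartile scaling (0.0529) or only the groups compared (0.0588). The gain from 2 to 6 h in PEO1 B (1.17-fold, adjusted p = 0.0201) did not pass without PDS 2 h replicate 1 (0.0628) or 3 (0.118), or without PDS 6 h replicate 1 (0.0794) or 2 (0.113). TERF2IP overlaps KARS1 in the annotation, and how the authors counted reads of overlapping genes is not given in the sources used here.

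TERF1 in PEO1 B went from 39.1, 31.8 and 34 CPM to 46.5, 44.6 and 41.9 at 2 h and 46.1, 45.3 and 45.2 at 6 h, a rise of 1.27-fold and 1.3-fold (adjusted p = 2.14e-04 and 5.84e-05). In PEO4 B its 2 h libraries, at 42.3, 37.3 and 42.7 CPM, overlapped the untreated ones, and at 6 h it had risen 1.27-fold to 53.3, 52.1 and 52.5 CPM (adjusted p = 9.22e-05). TERF2 had the same timing. It rose from 18.9 ± 1.82 to 24.6 ± 0.908 and 26.2 ± 1.64 CPM in PEO1 B (adjusted p = 2.50e-04 and 1.95e-05), and in PEO4 B it was at 13.2 ± 0.939, 13.9 ± 0.957 and 18.6 ± 0.357 CPM, a rise at 6 h alone (1.41-fold, adjusted p = 1.23e-05). The 2 h responses of the lines differed by a log2 value of -0.37 for TERF1, -0.31 for TERF2 and -0.33 for TERF2IP (adjusted p = 0.00472, 0.0384 and 0.00491), PEO4 B having the smaller. At 6 h the difference was -0.04 for TERF1 and 0.02 for TERF2, with 95% intervals from -0.24 to 0.16 and from -0.22 to 0.25, and -0.25 for TERF2IP (adjusted p = 0.0218).

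ACD rose in both lines, from 22.1 ± 1.53 to 28 ± 2.36 and 27.4 ± 0.279 CPM in PEO1 B (1.27-fold and 1.24-fold, adjusted p = 3.72e-04 and 9.45e-04). In PEO4 B it went from 15.9 ± 0.694 to 18.5 ± 1.19 and 18.5 ± 0.464 CPM (1.16-fold at both times, adjusted p = 0.0161 and 0.0146). With library totals the call was lost in PEO1 B at 6 h (adjusted p = 0.0553) and in PEO4 B at both times (0.311 and 0.495). Upper-quartile scaling also lost the call in PEO4 B at both times (0.0762 and 0.22). In PEO4 B it was also lost without untreated replicate 1 (0.0623 at 2 h and 0.0508 at 6 h) and, at 2 h, without PDS 2 h replicate 1 (0.0826). ACD overlaps CARMIL2 in the annotation.

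POT1 rose in PEO4 B at 2 h, from 17.1, 21.6 and 16.3 CPM to 27.1, 27.4 and 23.4 CPM, with no overlap (1.42-fold, adjusted p = 2.6e-05). At 6 h it was back at 20.6, 22.1 and 19.8 CPM, a fall of 1.25-fold from 2 h (adjusted p = 0.00249) and not called against untreated cells (0.0719). In PEO1 B it was at 21, 22.1 and 19.5 CPM untreated, at 18, 17.9 and 18 CPM at 2 h and at 18.7, 17 and 18.4 CPM at 6 h. The 1.16-fold fall at 2 h sat at the threshold (adjusted p = 0.0468) and was not called when any 1 of 14 of the 18 libraries was left out, with values up to 0.199 without untreated replicate 2. At 6 h the adjusted p was 0.0513. The 2 h responses of the lines differed by 0.72 on the log2 scale (adjusted p = 7.81e-05), the largest difference at that time. The count ratio of POT1 to ACD fell outside its untreated range of 0.823 to 1.07 in every PDS-treated PEO1 B library (0.59 to 0.697), while in PEO4 B it was 1.04 to 1.3 untreated, 1.28 to 1.57 at 2 h and 1.07 to 1.22 at 6 h.

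TINF2 stayed between 31.5 and 37.6 CPM in all 9 PEO1 B libraries, with log2 fold changes of -0.03 and -0.02 and 95% intervals from -0.17 to 0.12 and from -0.17 to 0.13. In PEO4 B it was at 45.7, 45.1 and 44.1 CPM untreated, 47.8, 52.4 and 49.7 CPM at 2 h (adjusted p = 0.0584) and 35.8, 38.2 and 40.8 CPM at 6 h, a fall of 1.18-fold (adjusted p = 0.00489). The 6 h responses of the lines were not shown to differ (log2 difference -0.22, adjusted p = 0.0799).

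**Figure D4:**
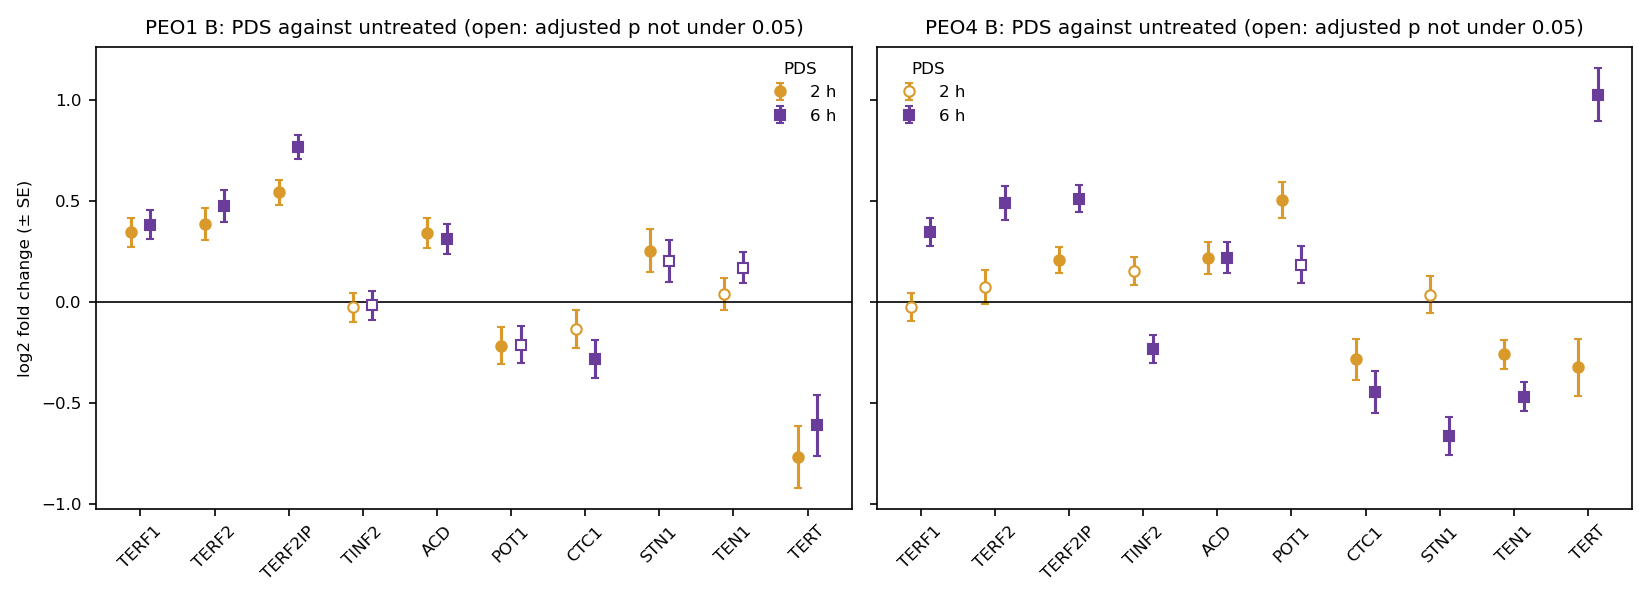
Log2 fold change (± SE derived from the edgeR test) of the 10 genes in PDS-treated over untreated cells. Circles are 2 h and squares 6 h of PDS, in PEO1 B (left) and PEO4 B (right), 3 libraries a group. Open symbols did not reach an adjusted p under 0.05. TERF2IP lies above 0 at all 4 points, and TERT lies below 0 at 3 points and at 1.03 at 6 h in PEO4 B.

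All 3 CST genes had fallen in PEO4 B by 6 h of PDS, where 35.2% of all genes were lower. CTC1 was lower at 6 h in PEO1 B too. STN1 in PEO4 B was at 42.6, 51.6 and 34.7 CPM untreated and at 43.5, 46.9 and 41.7 CPM at 2 h, and at 6 h it had fallen 1.58-fold to 27.1, 28.2 and 26.1 CPM, below every earlier library (adjusted p = 1.41e-06). In PEO1 B it was at 17, 14.1 and 14.9 CPM untreated, 18.6, 18.6 and 17.5 CPM at 2 h and 18.2, 17.7 and 16.9 CPM at 6 h. The 1.19-fold rise at 2 h (adjusted p = 0.0454) was lost without untreated replicate 2 (0.16) or 3 (0.106), without PDS 2 h replicate 1 (0.0878) or 2 (0.0922) and with library totals (0.396). At 6 h the 2 responses differed by -0.86 on the log2 scale (adjusted p = 2.58e-05). Even so, STN1 remained higher in PEO4 B than in PEO1 B at 6 h, with no overlap of the libraries.

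TEN1 in PEO4 B fell from 52.8, 46.1 and 52.9 CPM to 40.5, 46 and 40.5 CPM at 2 h and 37.2, 36.4 and 36.1 CPM at 6 h (1.2-fold and 1.38-fold, adjusted p = 0.00303 and 3.36e-06). In PEO1 B it went from 20.7 ± 1.4 to 21.3 ± 0.868 and 23.3 ± 1.98 CPM, with overlapping libraries (adjusted p = 0.71 and 0.0708). The responses differed by -0.30 at 2 h and -0.64 at 6 h (adjusted p = 0.0318 and 2.81e-05). TEN1-CDK3, with which it shares exon bases, was at 77.3 ± 7.86, 60.5 ± 6.95 and 55.1 ± 1.24 CPM in PEO4 B.

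CTC1 fell in both lines. In PEO1 B it was at 16.8 ± 0.491 CPM untreated, 15.3 ± 1.02 at 2 h (adjusted p = 0.236) and 13.8 ± 0.526 at 6 h, 1.22-fold lower (adjusted p = 0.0147). In PEO4 B it went from 10.3, 10.7 and 11.4 CPM to 9.89, 8.1 and 8.57 at 2 h and 7.85, 9.06 and 6.83 at 6 h, 1.22-fold and 1.36-fold lower (adjusted p = 0.017 and 4.56e-04). The PEO1 B call at 6 h was lost without untreated replicate 2 (0.0612) or PDS 6 h replicate 1 (0.0652). The PEO4 B call at 2 h was lost without untreated replicate 3 (0.075), PDS 2 h replicate 2 (0.0801) or PDS 2 h replicate 3 (0.0548). The responses were not shown to differ between the lines (log2 differences of -0.15 and -0.17, adjusted p = 0.426 and 0.35). CTC1 overlaps PFAS in the annotation.

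TERT went in opposite directions in the 2 lines at 6 h. In PEO1 B its counts were 121, 101 and 120 untreated, 113, 124 and 72 at 2 h and 136, 101 and 108 at 6 h, in libraries that were deeper after treatment. Scaled, this was 5.8, 4.17 and 5.27 CPM untreated, 3.56, 3.21 and 2.15 CPM at 2 h and 3.69, 3.06 and 3.17 CPM at 6 h. Every treated library lay below every untreated one, and the fall was 1.7-fold at 2 h and 1.53-fold at 6 h (adjusted p = 1.84e-04 and 0.00155).

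In PEO4 B the TERT counts were 155, 128 and 145 untreated, 186, 175 and 237 at 2 h and 561, 419 and 475 at 6 h. Scaled, the levels were 6.71, 6.43 and 6.68 CPM, then 5.17, 4.95 and 5.69 CPM, then 13.4, 12.8 and 14.2 CPM. All 3 libraries at 6 h stood above all others. TERT rose 2.04-fold over untreated cells (log2 fold change 1.03 ± 0.132 SE, adjusted p = 1.9e-07) and 2.55-fold over 2 h (1.35 ± 0.127 SE, adjusted p = 3.35e-09). The preceding 1.25-fold fall at 2 h (adjusted p = 0.0448) was not called when any 1 of 13 of the 18 libraries was left out, with values up to 0.116 without PDS 2 h replicate 2. The 6 h responses differed by 1.64 ± 0.201 SE on the log2 scale, or 3.11-fold (adjusted p = 4.34e-07). At 2 h they were not shown to differ (0.44, 95% interval from 0.01 to 0.87, adjusted p = 0.0978).

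The differences between the lines' responses, taken over the 10 genes, were signed as PEO4 B minus PEO1 B on the log2 scale. They were positive for 1 gene and negative for 4 at 2 h, where 19.3% and 18% of all genes were called, and positive for 2 and negative for 3 at 6 h, where 24.4% and 23% were called. POT1 and TERT were the positive ones at 6 h, with log2 differences of 0.40 (adjusted p = 0.0128) and 1.64. The negative ones were STN1 and TEN1, which fell in PEO4 B, and TERF2IP, which rose less there than in PEO1 B.

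Of the genes for the RNA and protein partners of TERT, between 7 and 11 of 15 rose at each time of PDS. The RNA template TERC had 24, 42 and 33 counts in PEO1 A and 8, 0 and 0 in PEO4 A, and from 14 to 28 counts in each PEO1 B library and from 0 to 11 in each PEO4 B library. TERC is not polyadenylated in its mature form, and these libraries held polyadenylated RNA. Of 15 tested genes of the telomerase particle and its assembly, 1 was higher and 6 lower in PEO4 A than in PEO1 A (all genes: 30.1% and 31.6%), and 2 were higher and 11 lower in PEO4 B than in PEO1 B (34% and 34.6%). In PEO1 B 9 rose and 2 fell at 2 h of PDS (26.4% and 26.2%), and 10 rose and 0 fell at 6 h (27% and 26%). In PEO4 B 7 rose and 1 fell at 2 h (33.3% and 32%), and 11 rose and 1 fell at 6 h (34.6% and 35.2%). The median log2 fold change at 6 h was 0.343 in PEO1 B and 0.664 in PEO4 B, against -0.027 and -0.028 over all genes.

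DKC1 encodes dyskerin, which holds TERC in the particle. It was at 239 ± 10.6 CPM in untreated PEO1 B and 121 ± 5.35 CPM in untreated PEO4 B (1.97-fold lower, adjusted p = 1.79e-13), and it reached 267 ± 5.96 CPM in PEO4 B at 6 h (2.2-fold higher than untreated, adjusted p = 2.11e-14). PINX1, an inhibitor of TERT activity, rose 2.37-fold in PEO4 B at 6 h, from 12.9 ± 0.99 to 30.7 ± 0.688 CPM (adjusted p = 1.01e-12). In PEO1 B it rose 1.47-fold, from 24.5 ± 1.92 to 36.1 ± 0.963 CPM (adjusted p = 8.22e-07). NHP2, another protein of the H/ACA core, rose 1.55-fold in PEO1 B at 6 h (adjusted p = 5.14e-09). Dyskerin and NHP2 also serve ribosomal RNA modification.

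The genes of end processing and of shelterin's repair partners were mixed. Of 17, 8 were higher and 5 lower in PEO4 A (all genes: 30.1% and 31.6%) and 5 higher and 7 lower in PEO4 B (34% and 34.6%). EXO1, the exonuclease that resects telomere ends, was 3.97-fold lower in PEO4 A and 2.84-fold lower in PEO4 B (adjusted p = 1.34e-08 and 1.96e-13). RIF1, a repair factor first known as a telomere protein of yeast, was 2.18-fold and 1.92-fold higher (adjusted p = 8.83e-08 and 5.35e-13). In PEO1 B 5 rose and 3 fell at 2 h of PDS (26.4% and 26.2%) and 8 rose and 3 fell at 6 h (27% and 26%). In PEO4 B 2 rose and 6 fell at 2 h (33.3% and 32%), with a median log2 fold change of -0.126, and 8 rose and 5 fell at 6 h (34.6% and 35.2%). From 2 to 6 h 12 of the 17 rose and 0 fell in PEO4 B, where 28.9% of all genes rose and 31.3% fell. At 6 h against untreated cells FEN1, the flap endonuclease of lagging-strand synthesis, rose 1.83-fold in PEO1 B (adjusted p = 8.66e-11), EXO1 rose 1.97-fold in PEO4 B (adjusted p = 6.56e-10), and SLX4, a nuclease scaffold that binds TRF2, fell in both lines (1.58-fold and 1.49-fold, adjusted p = 1.74e-05 and 3.55e-05).

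Of the genes of the 4 subunits of polymerase alpha-primase, the enzyme that CST guides, PRIM2 passed in both pairs and POLA1 in the B pair. Of all genes, 61.6% passed in the A pair and 68.6% in the B pair. POLA1 was 1.23-fold lower in PEO4 B (adjusted p = 0.00528). PRIM2, the gene of the large primase subunit, was 1.8-fold higher in PEO4 A and 2.06-fold higher in PEO4 B (adjusted p = 6.01e-06 and 2.95e-11). At 2 h of PDS in PEO4 B 1 of the 4 rose (PRIM1, 1.49-fold, adjusted p = 1.28e-06) and 3 fell, among them POLA1 (1.54-fold, adjusted p = 1.85e-06), where 33.3% of all genes rose and 32% fell. At 6 h PRIM1 alone of the 4 was called against untreated cells (1.44-fold higher, adjusted p = 4.27e-06), where 69.8% of all genes were called. From 2 to 6 h POLA1, POLA2 and PRIM2 rose, by 1.39-fold, 1.38-fold and 1.28-fold (adjusted p = 6.87e-05, 4.47e-06 and 2.54e-04), where 28.9% of all genes rose. In PEO1 B POLA1 rose at both times and the other 3 did not pass, where 52.6% and 53% of all genes were called.

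Of 9 tested genes of telomeric chromatin and of TERRA, the RNA transcribed from telomeres, 1 was higher and 1 lower in PEO4 A (all genes: 30.1% and 31.6%) and 2 higher and 4 lower in PEO4 B (34% and 34.6%). ZBTB48, a zinc-finger protein that binds telomeric repeats, was higher in both (1.77-fold and 1.41-fold, adjusted p = 2.17e-04 and 2.28e-04). At 6 h of PDS 4 rose and 2 fell in PEO1 B (27% and 26%), led by ATRX (1.39-fold, adjusted p = 1.14e-06), and 3 rose and 2 fell in PEO4 B (34.6% and 35.2%), led by HNRNPA2B1 (1.59-fold, adjusted p = 8.61e-09).

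Transcription factors known to act on TERT were read in the same way. Of 11 tested, 3 were higher and 5 lower in PEO4 A (all genes: 30.1% and 31.6%), and 2 higher and 7 lower in PEO4 B (34% and 34.6%). At 6 h of PDS 6 rose and 1 fell in PEO1 B (27% and 26%), with GABPB1 up 1.42-fold (adjusted p = 1.25e-06), and 5 rose and 3 fell in PEO4 B (34.6% and 35.2%). ETS1 went from 92.9 ± 22.9 to 356 ± 10.5 CPM in PEO4 B (3.83-fold, adjusted p = 3.22e-10), ETS2 from 49.5 ± 9.66 to 124 ± 2.07 CPM (2.5-fold, adjusted p = 5.84e-10) and MYC from 141 ± 9.41 to 267 ± 8.43 CPM (1.89-fold, adjusted p = 2.82e-13). MYC and ETS1 were already raised at 2 h (2.02-fold and 2.99-fold, adjusted p = 6.26e-14 and 5.65e-09). KLF4 rose 4.17-fold at 2 h (adjusted p = 2.19e-08) and then fell 2.45-fold from 2 to 6 h (adjusted p = 2.12e-06), to 30.6 CPM. These factors were not low in PEO1 B at 6 h, where TERT had fallen. There ETS1 was at 338 ± 28.5 CPM, ETS2 at 116 ± 2.85, MYC at 323 ± 7.54 and KLF4 at 62.8. Untreated PEO1 B cells had 249 ± 9.76, 107 ± 8.05, 275 ± 13.1 and 45.8 CPM in the same order. Of the 11, 5 rose and 5 fell in PEO4 B at 2 h (33.3% and 32%), where TERT was at 4.95 to 5.69 CPM. Whether any of these factors acted on TERT in these cells was not tested.

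**Figure D5:**
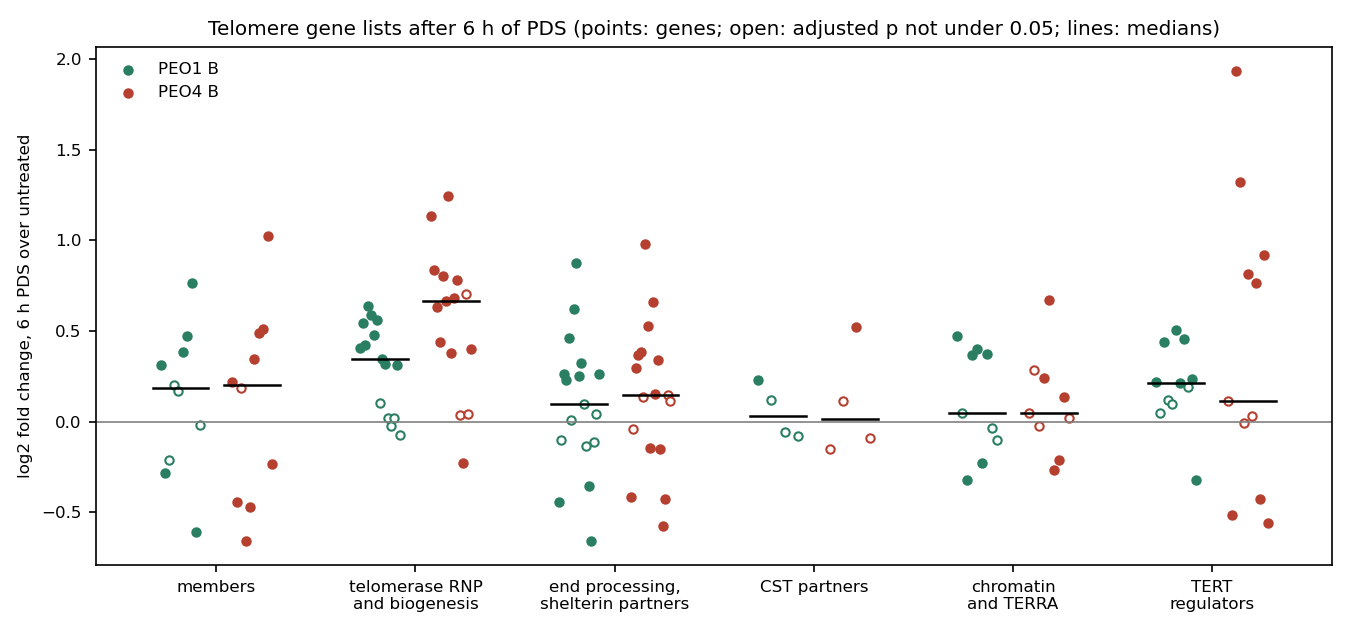
Log2 fold change after 6 h of PDS over untreated cells for each tested gene of the 6 lists (points; open where the adjusted p was not under 0.05) in PEO1 B (green) and PEO4 B (red), with the median of each list as a line. The telomerase particle list has the highest medians, 0.343 and 0.664.

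Over the 18 B libraries, which share 6 conditions of 3, the log2 CPM of TERT were most like those of CSK, ARHGAP5 and MOGS among 10179 genes (Pearson's r = 0.954, 0.946 and 0.943). The genes most like POT1 were CDH6, SNTB1 and KCNF1 (0.924, 0.902 and 0.895), and those most like TERF2IP were MBD2, HAS3 and MT1E (0.982, 0.978 and 0.978). These values describe likeness over conditions that differ also in depth.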

How the data were processed

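RNA-seq libraries of untreated PEO1 A and PEO4 A cells (6) and of PEO1 B and PEO4 B cells with or without PDS (18) were analysed, 3 per condition. The authors checked reads with FastQC, trimmed them with fastp, aligned them to hg38 with STAR and deposited whole-number counts per gene from featureCounts, without normalization; versions, annotation, strand and overlap settings are not given in the sources used here. Their methods name DESeq2 and iDEP. Each table lists 28277 genes, with 2 unreadable lines dropped from the A table and 1 from the B table.

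The test was that of edgeR 4.0.16 in R 4.3.3 (filterByExpr with a minimum count of 10 and total of 15, TMM scaling, robust quasi-likelihood fit with a mean per condition over all libraries of a table), on 15882 and 17020 genes. A gene passed at a Benjamini-Hochberg adjusted p under 0.05. Log2 fold changes use edgeR's prior count. Each SE was derived as the absolute log2 fold change over the square root of the test's F statistic. The 95% intervals were built from that SE with the t distribution. CPM are means ± SD (n = 3). Depth ranged from 18699929 to 63882077 counts per library. The scripts were tested on simulated data. No 2 replicates agreed within sampling noise.

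The 10 genes and all lists were chosen with earlier results of these data known. All 10 are named, and of each further list at most the 3 genes with the largest absolute log2 fold change among those that passed in a comparison. The alternatives were library totals, DESeq2 size factors, upper-quartile scaling, no filter, a minimum count of 50, DESeq2 1.42.0, stricter thresholds, a replicate block, thinned counts, only the groups compared, and each library left out. Promoter windows came from RefSeq (GRCh38.p14) and transcript lengths and gene overlaps from GENCODE on GRCh38.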

Additional observations from a re-analysis of the deposited data

Results flagged for a closer look

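The response to PDS differed between PEO4 B and PEO1 B for 5 genes at each time, by the interaction term of the edgeR fit. Of all 17020 genes tested, 37.3% passed the same test at 2 h and 47.4% at 6 h. Such a difference was thus common among all genes, and whether it was more frequent among the genes followed here was not tested. On the log2 scale, PEO4 B minus PEO1 B, the 2 h differences were 0.72 for POT1, -0.37 for TERF1, -0.33 for TERF2IP, -0.31 for TERF2 and -0.30 for TEN1 (adjusted p = 7.81e-05, 0.00472, 0.00491, 0.0384 and 0.0318). The 6 h differences were 1.64 for TERT, 0.40 for POT1, -0.86 for STN1, -0.64 for TEN1 and -0.25 for TERF2IP (adjusted p = 4.34e-07, 0.0128, 2.58e-05, 2.81e-05 and 0.0218). The TERF2 call at 2 h was lost without any 1 of PEO1 B untreated replicate 2, PEO1 B PDS 2 h replicates 1 and 2, PEO4 B untreated replicates 1 and 3 and PEO4 B PDS 2 h replicate 2 (adjusted p up to 0.115). The TEN1 call at 2 h was lost without any 1 of PEO1 B untreated replicate 1, PEO1 B PDS 2 h replicates 1 and 2, PEO4 B untreated replicates 1 and 3 and PEO4 B PDS 2 h replicates 1 and 3 (up to 0.0885). The TERF2IP call at 6 h was lost without PEO1 B PDS 6 h replicate 2 (0.0587) or PEO4 B PDS 6 h replicate 3 (0.0572). With counts thinned to the smallest library, TERF2IP at 2 h and POT1 at 6 h also lost the call (adjusted p = 0.141 and 0.0934).

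TERF1 and TERF2IP went in opposite directions between PEO4 and PEO1 in the 2 untreated pairs, with every library of one line on one side of the other. TERF1 had a log2 fold change of -0.28 in the A pair and 0.25 in the B pair, and TERF2IP had 0.37 and -0.41. The difference between the pairs was not tested, since the tables were counted separately.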

How the results depend on the processing

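Of 64 passing values of the 10 genes over the 10 comparisons, 47 kept their direction and call under every alternative apart from the 2-fold threshold, 17 lost the call under at least 1, and 0 reversed. Leaving out 1 library lost the call of 13. Other scalings lost the call of 6.

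The number of genes passing moved by over 1.5 times as follows. With a fold threshold of 2, it was 2 in each untreated pair, where 25.8% (A) and 24.8% (B) of all genes passed. It was 1 in PEO4 B at 6 h, in PEO4 B from 2 to 6 h and for the 6 h difference in response (all genes: 22.6%, 12% and 14.8%). In the other 5 comparisons it was 0, where 0.17% to 17.4% of all genes passed. At an adjusted p under 0.01 it was 0 for PEO1 B from 2 to 6 h, 3 for PEO4 B at 2 h and 3 for each difference in response. Of all genes, 2.94%, 55.7%, 25.4% (2 h difference) and 35.7% (6 h difference) passed there. With counts thinned to the smallest library it was 0, 3 and 3 for PEO1 B from 2 to 6 h and the 2 h and 6 h differences (all genes: 4.52%, 32.7% and 42.6%). Leaving out 1 library gave 0 to 1 for PEO1 B from 2 to 6 h, where 3.27% to 9.38% of all genes passed. It gave 3 to 5 for the 2 h difference, the 3 without PEO1 B PDS 2 h replicate 2 or PEO4 B untreated replicate 1 (all genes: 32.7% and 33.3%). The causes were not tested, apart from the stricter thresholds and lower depth that these settings impose.

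Replicate numbers did not pair the samples: deviations of same-numbered samples correlated from -0.0429 to 0.0228 in the A table and from -0.158 to 0.134 in the B table. With a replicate block, 8 and 9 genes passed in the untreated A and B pairs, where 59.8% and 68.3% of all genes passed. It was 7 and 7 in PEO1 B at 2 and 6 h (all genes: 52.1% and 52.5%) and 6 and 9 in PEO4 B (65% and 69.5%). For each difference in response it was 5 (36.3% at 2 h and 47.2% at 6 h). TERT, with 22 to 590 counts a library, is the gene most limited by depth. Lengths of the shortest coding transcript changed the rank per kilobase of 5 to 8 of 10 genes in the B conditions and of 2 and 5 of 9 in PEO1 A and PEO4 A.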
